A study of Homo sapiens with 12 samples.

Results

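The 26 sterol and fatty acid synthesis genes described here were measured by single-cell RNA-seq in Nalm-6, a human cell line of B-cell precursor acute lymphoblastic leukemia (B-ALL). They were found by symbol among the 57905 human genes of the deposited tables, and all 26 were present. The RUNX1-labelled library came from cells carrying a doxycycline-inducible RUNX1 cDNA and kept for 72 h with 500 ng/ml doxycycline. The control library is labelled as empty vector at 72 h, is titled by the solvent DMSO and has no doxycycline among its labels. A count of passing cells given for Nalm-6 in the study equals the one found for the control here, and that count belongs to cells kept in DMSO for a shorter time, so the control may be cells without a vector. The vector, the inducer and the time in culture therefore cannot be told apart from the RUNX1 label. RUNX1 is a DNA-binding transcription factor of blood cell formation, and the comparison asked which transcripts differ when it is induced.

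Cholesterol is built from acetyl-CoA through mevalonate, squalene and lanosterol, and fatty acids are built from acetyl-CoA through malonyl-CoA. Many enzymes of both routes are transcribed under control of the sterol regulatory element-binding proteins, which are held in the endoplasmic reticulum by INSIG proteins when sterols are plentiful and are released to the nucleus when sterols run low. Growing leukemia cells need both products for new membranes.

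Each group was 1 library, so no difference was tested, and every interval below is a 95% interval for counting error only. The RUNX1-labelled library held 4800 passing cells with 75350615 unique molecular identifiers (UMIs), and the control held 5598 cells with 75754137 UMIs. RUNX1 itself counted 2288 UMIs in the RUNX1-labelled library, or 30.4 per 1000000 UMIs (CPM), against 5282 UMIs or 69.7 CPM in the control. The transcript was thus lower in the RUNX1-labelled library, and it is not known whether these 3' counts include the induced cDNA, so they are no check of the label. Of 13 B precursor markers 12 were in the tables and all 12 reached 10 CPM, with a sum of 5811 CPM in the RUNX1-labelled library and 4591 CPM in the control. By the limit used below 3 of them were lower and 4 higher, beside 21.4% and 13.8% of all genes. Among them were VPREB1, CD79A, DNTT and RAG2, which encode surrogate light chain, receptor signalling and recombination proteins of B precursors. These 4 stood at 2318, 293, 191 and 18.4 CPM in the RUNX1-labelled library, against 1022, 144, 579 and 35.6 CPM in the control. Within cycling cells, a class called below, 2 markers were lower and 2 higher, beside 12.9% and 6.5% of all genes. CD79A had a log2 ratio of -0.08 in cycling cells, against 1.02 over all cells. Markers of T cells, myeloid cells, erythroid cells and stromal cells summed to 9.58, 1.77, 0.0133 and 2.35 CPM in the RUNX1-labelled library and to 7.63, 2.27, 0.0132 and 0.805 CPM in the control.

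The libraries differed in cell cycle state. Cells were called G1, S or G2/M from scores of S phase and G2/M genes after each was thinned to 8000 UMIs, which left out 612 shallower cells of the RUNX1-labelled library and 413 of the control. G1 was called for 2449 of 4188 cells of the RUNX1-labelled library, or 58.5% (exact binomial interval 57.0 to 60.0), and for 488 of 5185 control cells, or 9.41% (8.63 to 10.2). Without thinning these shares were 62.0% and 9.11%. The summed S phase genes stood at 2386 CPM in the RUNX1-labelled library and 4765 CPM in the control, and the summed G2/M genes at 3335 CPM in the RUNX1-labelled library and 5930 CPM in the control. The share of mitochondrial UMIs was 13.1% in the RUNX1-labelled library and 9.45% in the control, and that of ribosomal protein UMIs was 30.1% in the RUNX1-labelled library and 25.5% in the control. None of the 26 genes belongs to the phase lists, but their part in any difference was not tested, nor was that of free RNA in the phase calls. The members are therefore compared over all cells, within cells called S or G2/M (cycling cells) and within cells called G1, and a ratio with no state named is over all cells.

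Upstream sequences are shown for 5 members that moved together or stood apart, so that the letters before their start sites can be read beside their levels. They are the 3 lower members with the largest differences and closely spaced start sites, and the 2 higher members. RefSeq sequences on GRCh38.p14 covered 22 of the 26 genes with 30 windows of 250 bases before a start site, and the windows shown come from chr5:43313413-43313662 (minus strand) for HMGCS1, chr7:155297628-155297877 (plus) for INSIG1, chr10:100346983-100347232 (plus) for SCD, chr4:110198616-110198865 (minus) for ELOVL6 and chr17:17836987-17837236 (minus) for SREBF1. Each is written 5′ to 3′ on the strand of the gene and ends at the base before the start. Capitals mark CCAAT, the box bound by nuclear factor Y, and TGTGGT, a RUNX motif, on either strand.
HMGCS1: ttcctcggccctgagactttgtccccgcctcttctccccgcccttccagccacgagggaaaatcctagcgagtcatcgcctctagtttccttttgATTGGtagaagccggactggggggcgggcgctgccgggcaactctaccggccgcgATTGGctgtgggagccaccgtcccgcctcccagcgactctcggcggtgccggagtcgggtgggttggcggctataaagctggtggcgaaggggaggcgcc
INSIG1: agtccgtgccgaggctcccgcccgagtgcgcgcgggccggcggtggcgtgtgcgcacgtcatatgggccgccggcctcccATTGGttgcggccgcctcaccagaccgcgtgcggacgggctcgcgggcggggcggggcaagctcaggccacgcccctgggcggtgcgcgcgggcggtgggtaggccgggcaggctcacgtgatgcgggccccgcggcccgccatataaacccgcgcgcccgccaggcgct
SCD: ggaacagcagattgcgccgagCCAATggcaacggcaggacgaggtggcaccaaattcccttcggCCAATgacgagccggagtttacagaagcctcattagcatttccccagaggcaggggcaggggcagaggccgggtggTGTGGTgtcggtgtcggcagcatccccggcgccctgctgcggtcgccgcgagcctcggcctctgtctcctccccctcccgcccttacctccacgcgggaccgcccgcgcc
ELOVL6: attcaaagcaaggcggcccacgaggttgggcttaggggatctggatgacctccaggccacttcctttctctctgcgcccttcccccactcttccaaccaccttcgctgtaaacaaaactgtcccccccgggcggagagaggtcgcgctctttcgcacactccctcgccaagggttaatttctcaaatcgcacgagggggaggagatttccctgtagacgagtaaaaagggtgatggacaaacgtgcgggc
SREBF1: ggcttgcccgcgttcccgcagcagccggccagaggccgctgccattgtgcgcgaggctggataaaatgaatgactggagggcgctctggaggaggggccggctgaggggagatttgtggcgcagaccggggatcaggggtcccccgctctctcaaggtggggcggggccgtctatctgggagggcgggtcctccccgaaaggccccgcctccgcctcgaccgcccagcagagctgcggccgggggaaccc

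Of the members shown, which were picked by their values, HMGCS1, INSIG1 and SCD held CCAAT or its complement ATTGG, and ELOVL6 and SREBF1 did not. Members with positive ratios held it too, namely STARD4, HSD17B7 and SREBF2. In HMGCS1 the 2 matches began 155 and 100 bases before the start, in INSIG1 the 1 match began 170 bases before it, and in SCD the 2 matches began 229 and 186 bases before it. Over all members, 20 of 30 windows (66.7%) of 17 genes held this box, against 11240 of 35116 windows (32.0%) of all genes. The RUNX motif TGTGGT or ACCACA stood in 4 of 30 windows (13.3%), those of IDI1, MVD, LSS and SCD, against 11.0% of all windows. The sterol regulatory element TCACNCCAC or its complement stood in 1 of 30 windows (3.33%), that of SREBF2, against 0.883% of all windows. These letters do not overlap one another in the windows shown, and a match is a description of the letters, not a bound site.

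Over all cells the 26 genes summed to 1494 CPM in the RUNX1-labelled library (interval 1485 to 1503) and 2067 CPM in the control (2057 to 2077). Of the 26 genes, 25 reached 10 CPM in at least 1 library, and 10 of them were lower and 2 higher by at least 0.5 in size on the log2 scale. Among all 7980 genes at that level, 21.4% were lower and 13.8% higher by the same limit, so the lower members were 40% of those measured and the higher members 8%. The median log2 ratio of the members was -0.43, against -0.13 for all genes. Counting intervals lay below 0 for 20 members and above 0 for 4. The plot of levels in CPM by gene and library shows both libraries in each set of cells.

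**Figure D1:**
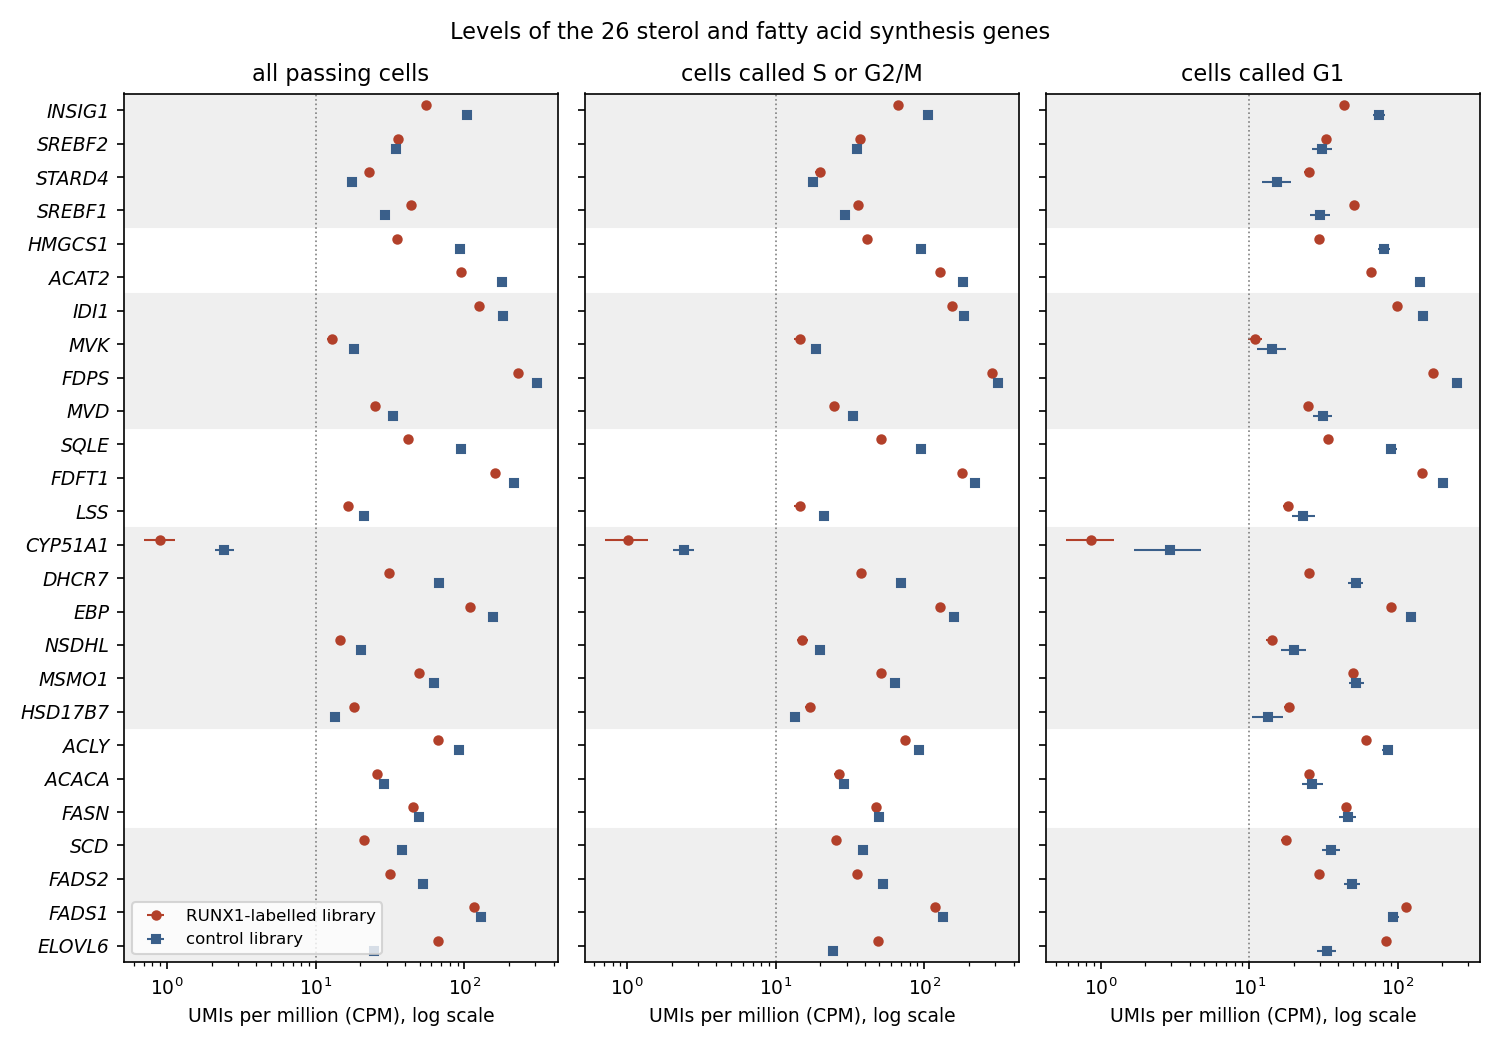
Level of each of the 26 genes (rows, grouped by role with shaded bands) in CPM on a log axis, for the RUNX1-labelled library (red circles) and the control (blue squares). Panels show all passing cells, cycling cells (S or G2/M) and cells called G1, bars are exact Poisson 95% intervals, and the dotted line marks 10 CPM. Among the 25 measured genes the largest gaps are at HMGCS1 (35.0 CPM in the RUNX1-labelled library against 92.6 CPM in the control, over all cells), SQLE, DHCR7 and, in the other direction, ELOVL6 (66.0 CPM in the RUNX1-labelled library against 24.8 CPM in the control).

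The first steps, leading to mevalonate, were represented by ACAT2, the cytosolic thiolase that joins acetyl-CoA units, and HMGCS1, the synthase that makes HMG-CoA. HMGCS1 (ENSG00000112972, GRCh37 chr5:43287572-43313614, minus strand) counted 2634 UMIs or 35.0 CPM in the RUNX1-labelled library, against 7016 UMIs or 92.6 CPM in the control, and was 2.65-fold lower (log2 ratio -1.41, interval -1.47 to -1.34). ACAT2 stood at 95.4 CPM in the RUNX1-labelled library and 179.9 CPM in the control, a log2 ratio of -0.92 (-0.96 to -0.87). Both were below the control in cycling cells and in G1 cells as well. HMGCS1 had log2 ratios of -1.21 in cycling cells and -1.46 in G1 cells, and ACAT2 of -0.51 and -1.11 in the same order. ACAT2 overlaps SOD2 and TCP1 on the other strand in the GRCh37 annotation.

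The 4 members that carry mevalonate to farnesyl diphosphate differed less. IDI1, the isomerase that makes dimethylallyl diphosphate, stood at 125 CPM in the RUNX1-labelled library and 181 CPM in the control (log2 ratio -0.53). MVK, mevalonate kinase, stood at 12.8 CPM in the RUNX1-labelled library and 18.2 CPM in the control (-0.51), and overlaps MMAB on the other strand. FDPS, farnesyl diphosphate synthase and the member with the most UMIs, stood at 229 CPM in the RUNX1-labelled library and 307 CPM in the control (-0.42). MVD, the decarboxylase of this stretch, stood at 25.2 CPM in the RUNX1-labelled library and 32.9 CPM in the control (-0.39), so 2 of the 4 passed the limit. In cycling cells alone none of these 4 did, and their ratios lay between -0.43 for MVD and -0.13 for FDPS, where FDPS changed sign when mitochondrial and ribosomal protein genes were left out of the totals. FDPS has several pseudogenes in the tables, and reads could be split among near-identical copies.

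Between farnesyl diphosphate and lanosterol the members moved unequally. SQLE, squalene epoxidase and a rate-limiting enzyme of the late route, counted 3135 UMIs or 41.6 CPM in the RUNX1-labelled library, against 7155 UMIs or 94.5 CPM in the control, and was 2.27-fold lower (log2 ratio -1.18, interval -1.24 to -1.12). FDFT1, squalene synthase, stood at 161 CPM in the RUNX1-labelled library and 217 CPM in the control (-0.43). LSS, lanosterol synthase, stood at 16.5 CPM in the RUNX1-labelled library and 21.2 CPM in the control (-0.36). In the RUNX1-labelled library SQLE stood at 51.4 CPM in cycling cells and 33.8 CPM in G1 cells, against 94.5 and 90.9 CPM in the same cells of the control. Its level in the control was thus nearly equal in both states.

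Of the 6 members that turn lanosterol into cholesterol, 5 were measured, 2 of them were lower by the limit and 1 had a positive ratio. DHCR7 (ENSG00000172893, chr11:71139239-71163914, minus strand), the reductase that makes cholesterol from its last precursor, counted 2332 UMIs or 30.9 CPM in the RUNX1-labelled library, against 5125 UMIs or 67.7 CPM in the control (log2 ratio -1.13, interval -1.20 to -1.06). EBP, the sterol isomerase, stood at 109 CPM in the RUNX1-labelled library and 155 CPM in the control (-0.51), and was under the limit in cycling cells (-0.30) and in G1 cells (-0.44). EBP overlaps an unnamed protein-coding model on its own strand in the GRCh37 annotation. NSDHL and MSMO1, which take part in removing methyl groups at carbon C-4, had ratios of -0.46 and -0.34, with -0.40 and -0.31 in cycling cells and -0.49 and -0.08 in G1 cells. HSD17B7, the ketone reductase of the same steps, stood at 18.2 CPM in the RUNX1-labelled library and 13.5 CPM in the control (0.43), under the limit, and has pseudogene copies in the tables. CYP51A1, the demethylase of lanosterol, counted 68 UMIs in the RUNX1-labelled library and 185 UMIs in the control, which is 0.902 and 2.44 CPM and below the level at which a gene was measured here. It overlaps 2 unnamed protein-coding models on its own strand in the GRCh37 annotation. Whether such models were in the gene set used for counting was not checked, so it is not known whether reads were shared.

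Of the 3 members that make palmitate none passed the limit, and FASN and ACACA differed less than ACLY. ACLY, which supplies cytosolic acetyl-CoA from citrate, stood at 66.5 CPM in the RUNX1-labelled library and 91.4 CPM in the control (log2 ratio -0.46), with ratios of -0.32 in cycling cells and -0.48 in G1 cells. ACACA, acetyl-CoA carboxylase, stood at 25.7 CPM in the RUNX1-labelled library and 28.7 CPM in the control (-0.16). FASN, fatty acid synthase, stood at 45.1 CPM in the RUNX1-labelled library and 49.2 CPM in the control (-0.13). The signs of ACACA and FASN depended on the scaling, and FASN lay at the median of all genes.

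The 4 elongation and desaturation enzymes moved in both directions. ELOVL6 (ENSG00000170522, chr4:110967002-111120355, minus strand), which extends palmitate to stearate, counted 4973 UMIs or 66.0 CPM in the RUNX1-labelled library, against 1876 UMIs or 24.8 CPM in the control, and was 2.67-fold higher (log2 ratio 1.41, interval 1.34 to 1.49). SCD (ENSG00000099194, chr10:102106990-102124583, plus strand), which introduces the first double bond into stearate, counted 1600 UMIs or 21.2 CPM in the RUNX1-labelled library, against 2892 UMIs or 38.2 CPM in the control (-0.85, interval -0.94 to -0.76). FADS2, the delta-6 desaturase, stood at 31.7 CPM in the RUNX1-labelled library and 52.4 CPM in the control (-0.73). Enzymes that act in sequence, ELOVL6 and then SCD, thus differed in opposite directions. FADS1, the delta-5 desaturase next to FADS2, stood at 116 CPM in the RUNX1-labelled library and 130.1 CPM in the control (-0.17), a sign that depended on the scaling. FADS1 and FADS2 overlap each other on opposite strands, and FADS2 overlaps FEN1 on its own strand.

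The regulators differed among themselves. INSIG1 (ENSG00000186480, chr7:155089486-155101945, plus strand), the retention factor and itself a target of the pathway, counted 4132 UMIs or 54.8 CPM in the RUNX1-labelled library, against 7896 UMIs or 104 CPM in the control, and was 1.90-fold lower (log2 ratio -0.93, interval -0.98 to -0.87). SREBF1 (ENSG00000072310, chr17:17713713-17740316, minus strand), which encodes the factor best known for fatty acid genes, stood at 43.6 CPM in the RUNX1-labelled library and 29.1 CPM in the control (0.58, interval 0.51 to 0.66). Its ratio was 0.29 in cycling cells, under the limit, and 0.76 in G1 cells. SREBF1 overlaps RAI1 on the other strand. SREBF2, which encodes the factor best known for cholesterol genes, stood at 35.9 CPM in the RUNX1-labelled library and 34.8 CPM in the control, and its interval of -0.04 to 0.12 included 0. STARD4, a carrier of cholesterol between membranes, stood at 23.0 CPM in the RUNX1-labelled library and 17.6 CPM in the control (0.38). The 3' counts measure transcripts only, and the processing of the encoded factors was not measured.

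Scaling moved these ratios together. Leaving mitochondrial and ribosomal protein genes out of the totals moved the median of all genes to 0.07, and then 7 members were lower and 4 higher, where 11.7% of all genes were lower and 21.7% higher. With TMM factors 15 members were lower and 1 higher, where 30.5% of all genes were lower and 10.3% higher. A scaling factor shifts all genes alike, so it leaves the distance of the members' median from that of all genes, -0.30, as it is, and alternatives that can move this distance gave -0.46 to -0.18 over all cells. Relative to the median of all genes HMGCS1 stood at -1.28, SQLE at -1.06, DHCR7 at -1.0, INSIG1 at -0.80, ACAT2 at -0.79, SCD at -0.72, FADS2 at -0.60, STARD4 at 0.51, HSD17B7 at 0.56, SREBF1 at 0.71 and ELOVL6 at 1.54, and the other measured members lay within 0.5 of it.

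Within cycling cells the members differed less than over all cells. Their sum was 1680.1 CPM in 1739 cells of the RUNX1-labelled library (interval 1667 to 1693) and 2099 CPM in 4697 control cells (2088 to 2110). Of the 25 measured members 8 were lower and 1 higher by the limit, beside 12.9% and 6.5% of 7702 genes, with a median of -0.31 against -0.14 for all genes. The lower ones were HMGCS1 (-1.21), DHCR7 (-0.89), SQLE (-0.88), INSIG1 (-0.67), FADS2 (-0.59), SCD (-0.59), LSS (-0.54) and ACAT2 (-0.51), and the higher one was ELOVL6 (1.01). Relative to the median of all genes FADS2 and SCD stood at -0.45, LSS at -0.41 and ACAT2 at -0.38. INSIG1, FADS2, SCD, LSS and ACAT2 did not stay past the limit under every alternative. Without mitochondrial and ribosomal protein genes in the totals 4 were lower and 2 higher, where 5.99% of all genes were lower and 11.5% higher, and with median-of-ratios scaling 6 were lower and 1 higher, where 9.97% were lower and 7.86% higher. Within the cycling class, cells called S had a sum of 1630.5 CPM in the RUNX1-labelled library and 2012 CPM in the control, and cells called G2/M had 1724 CPM in the RUNX1-labelled library and 2189 CPM in the control. The summed S phase genes of cycling cells still differed, at 3887 CPM in the RUNX1-labelled library and 5009 CPM in the control.

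Within cells called G1 the sum was 1331 CPM in 2449 cells of the RUNX1-labelled library (interval 1319 to 1344) and 1771 CPM in 488 control cells (1735 to 1806). Of the 25 measured members 9 were lower and 3 higher, beside 22.6% and 19.4% of 7930 genes, with a median of -0.44 against -0.07 for all genes. The lower ones were HMGCS1 (-1.46), SQLE (-1.43), ACAT2 (-1.11), DHCR7 (-1.05), SCD (-1.01), INSIG1 (-0.78), FADS2 (-0.75), IDI1 (-0.57) and FDPS (-0.52). The higher ones were ELOVL6 (1.32), SREBF1 (0.76) and STARD4 (0.71), and STARD4 counted 84 UMIs in the control cells called G1. The control class held more S phase transcripts, with 967 CPM in the RUNX1-labelled library and 1918 CPM in the control. Without mitochondrial and ribosomal protein genes in the totals 7 were lower and 4 higher, where 14.3% of all genes were lower and 26.5% higher. With only cells under 10% mitochondrial UMIs, 202 cells of the RUNX1-labelled library and 212 of the control were left, and 16 members were lower and 4 higher, where 24.9% of all genes were lower and 30.7% higher.

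Cells called G1 were also set against cycling cells within each library. In the RUNX1-labelled library this contrast had 7 members lower and 1 higher of 25, beside 14.9% and 13.4% of 7948 genes, with a median of -0.25 against -0.01 for all genes. The lower ones were ACAT2 (66.1 CPM in G1 cells and 129 CPM in cycling cells, log2 ratio -0.96), FDPS (-0.72), IDI1 (-0.63), INSIG1 (-0.62), SQLE (-0.61), DHCR7 (-0.56) and SCD (-0.53). ELOVL6 stood at 83.2 CPM in G1 cells and 49.0 CPM in cycling cells (0.76), and SREBF1 at 50.7 and 35.9 CPM in the same order, just under the limit. With TMM factors 10 members were lower and 1 higher, where 19.9% of all genes were lower and 10.1% higher, and without mitochondrial and ribosomal protein genes in the totals 5 were lower and 2 higher, where 11.7% were lower and 17.6% higher. In the control the same contrast had 2 members lower, FADS1 (-0.51) and INSIG1 (-0.50), and 0 higher, beside 10.5% and 2.77% of 7581 genes, with a median of -0.11 against -0.06. Without those genes in the totals 0 were lower and 1 higher there, where 8.30% of all genes were lower and 4.12% higher. Whether the contrast differed between the libraries was not tested. ELOVL6 had a positive ratio in the control too, at 33.3 CPM in G1 cells and 24.2 CPM in cycling cells (0.46).

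**Figure D2:**
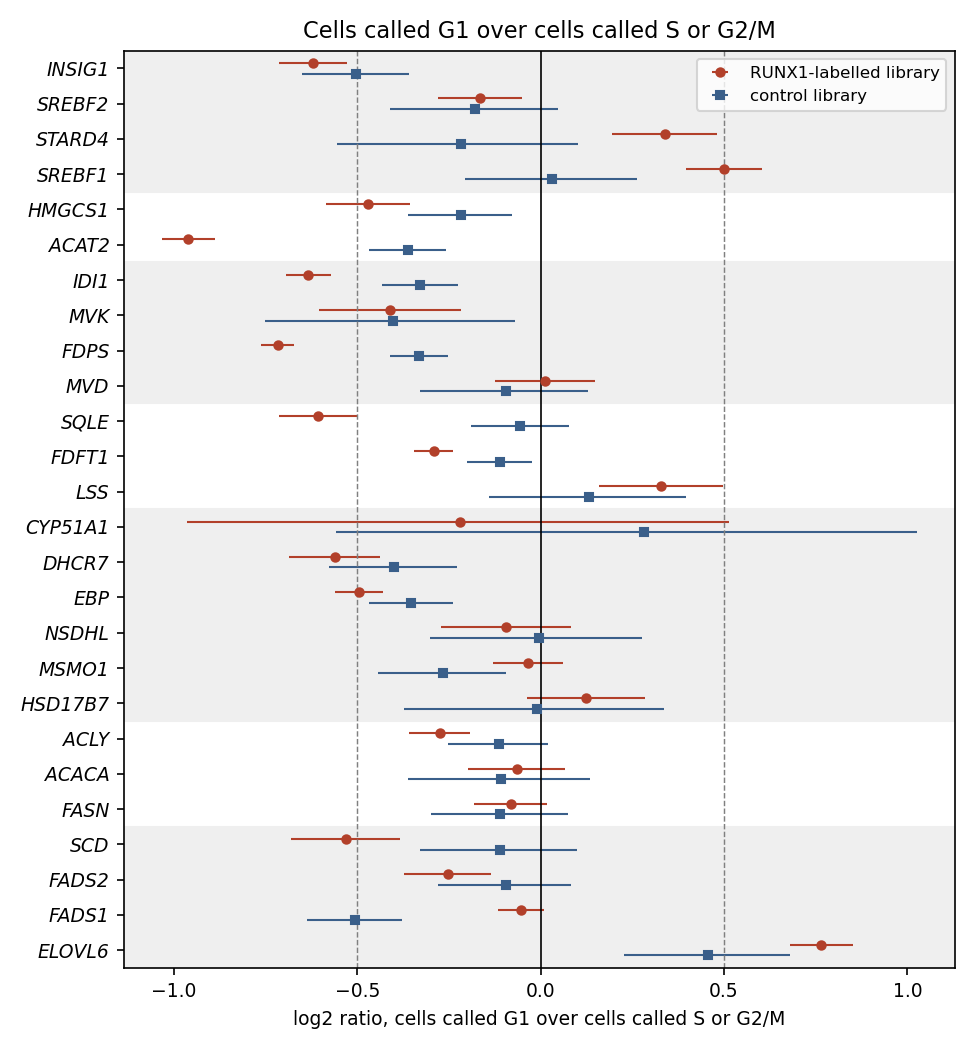
Log2 ratio of CPM, cells called G1 over cells called S or G2/M, for each gene within the RUNX1-labelled library (red circles) and within the control (blue squares), with 95% counting intervals and dashed lines at 0.5 in size. ACAT2, FDPS and SQLE lie at -0.96, -0.72 and -0.61 in the RUNX1-labelled library and at -0.36, -0.33 and -0.06 in the control.

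Counts per cell spread broadly. Thinned to 8000 UMIs, a cell of the RUNX1-labelled library held a median of 11 UMIs of the 26 genes (10th to 90th percentile 6 to 19) and a control cell 15 UMIs (8 to 26). Among cycling cells the medians were 13 UMIs (7 to 21) in the RUNX1-labelled library and 16 UMIs (8 to 27) in the control. Among G1 cells they were 10 UMIs (5 to 17) in the RUNX1-labelled library and 12 UMIs (6 to 24) in the control. The ranges overlapped broadly in both states, and the control reached further to high values. The variance over cells was 2.54 times the mean in the RUNX1-labelled library and 3.25 times the mean in the control. The 15 sterol synthesis enzymes had a mean of 7.42 UMIs per thinned cell in the RUNX1-labelled library and 11.7 in the control, whereas the 7 fatty acid enzymes had 2.96 in the RUNX1-labelled library and 3.27 in the control. The means of the fatty acid enzymes were 2.95 in the RUNX1-labelled library and 3.31 in the control among cycling cells. Among G1 cells they were 2.96 in the RUNX1-labelled library and 2.89 in the control, with standard deviations over cells of 2.07 and 2.11. These G1 means are too close for an order to be read from them. The enzymes also moved unequally there, with ELOVL6 higher, SCD and FADS2 lower and the others within the limit.

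**Figure D3:**
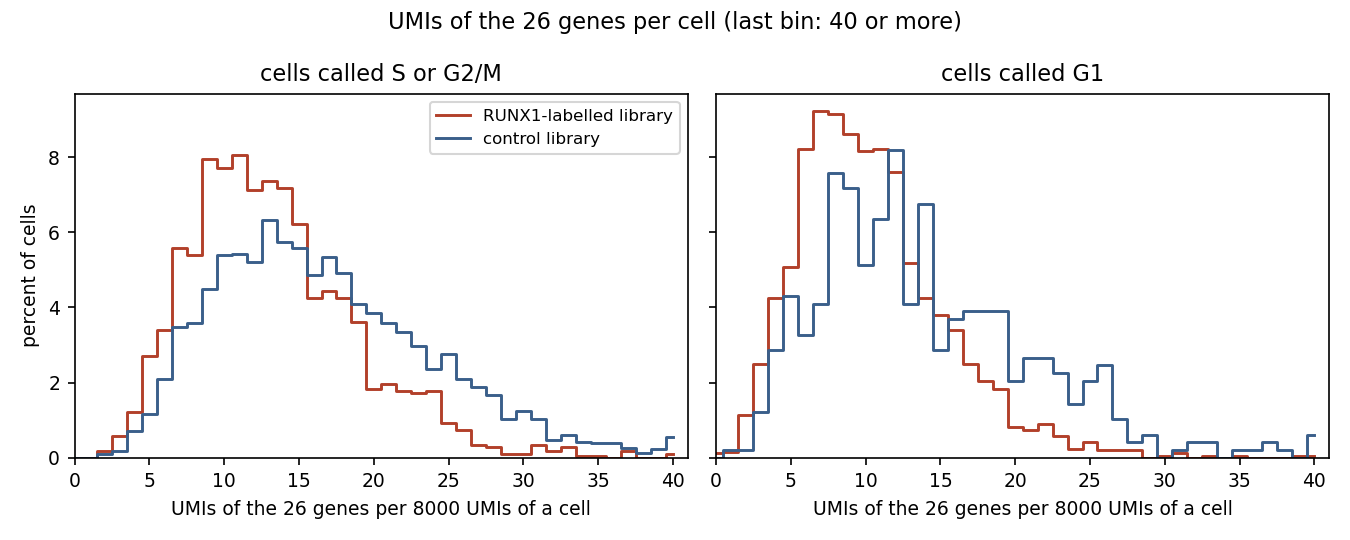
Distribution over cells of the summed UMIs of the 26 genes per 8000 UMIs of a cell (x axis, last bin 40 or more) as percent of cells (y axis), for the RUNX1-labelled library (red) and the control (blue). The medians are 13 UMIs in cycling cells and 10 UMIs in G1 cells of the RUNX1-labelled library and 16 and 12 UMIs in the same cells of the control, and the curves overlap.

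The G1 cells of the RUNX1-labelled library were not alike in these genes. By genes chosen after their values were seen, 932 cells held a UMI of the chemokine genes CCL3 or CCL4 after thinning, 522 others held FCER1G, and 927 held neither, with 68 cells set aside that held C1orf141 or LINC00967. The 26 genes summed to 1249 CPM in the chemokine cells, 1248 CPM in the FCER1G cells and 1431 CPM in those with neither, with median depths of 11126, 12160 and 16154 UMIs. SQLE stood at 25.3, 27.3 and 43.0 CPM, and HMGCS1 at 21.9, 25.9 and 36.9 CPM, in the same order. SREBF1 ran the other way, with 61.6, 50.9 and 43.1 CPM, and it was not alone. FADS1 had 126, 114 and 103 CPM and HSD17B7 21.6, 18.7 and 16.3 CPM, whereas MVD was nearly level at 25.5, 24.5 and 24.5 CPM. The part of depth in these differences was not tested. The cells with neither stood below the control G1 cells for HMGCS1 and SQLE, which had 81.2 and 90.9 CPM there.

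Other genes of the pathway were read from lists made with earlier results of these data known. Of 9 further genes listed for sterol synthesis 6 were measured, 3 lower and 1 higher, beside 21.4% and 13.8% of all genes. The list includes ACAT1, whose thiolase is mitochondrial, whereas that of ACAT2 is cytosolic. In cycling cells 2 were lower and 1 higher, beside 12.9% and 6.5% of all genes. In G1 cells 1 was lower and 1 higher, beside 22.6% and 19.4% of all genes. ACAT1, the mitochondrial thiolase, stood at 33.1 CPM in the RUNX1-labelled library and 64.5 CPM in the control (log2 ratio -0.96), SC5D, a sterol desaturase, at 12.7 CPM in the RUNX1-labelled library and 18.7 CPM in the control (-0.56), and LBR, a sterol reductase of the nuclear envelope that is also in the G2/M list, at 67.7 CPM in the RUNX1-labelled library and 111 CPM in the control (-0.72). TM7SF2, a reductase with the same reaction as LBR, stood at 56.2 CPM in the RUNX1-labelled library and 20.1 CPM in the control (1.48). LBR and TM7SF2 thus lay on opposite sides of 0. Within cycling cells LBR had -0.39 and TM7SF2 0.57, and within G1 cells LBR had -0.48 and TM7SF2 1.27, so LBR was under the limit in both states. SC5D had -0.67 in cycling cells and -0.35 in G1 cells, and ACAT1 -0.95 and -0.98 in the same order. Of 8 genes that process or retain the binding proteins 7 were measured, with a median of -0.06 over all cells. None of them passed the limit over all cells or in cycling cells. In G1 cells SEC24D was higher (0.69), where 19.4% of all genes were higher. VCP, SEC24D, RNF145 and SCAP, the last of which escorts the binding proteins out of the endoplasmic reticulum, had ratios of -0.30, 0.24, -0.22 and -0.18.

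Of 13 genes of sterol uptake, storage and export 10 were measured, with 3 higher, 1 lower and a median of 0.25. Of all genes 13.8% were higher and 21.4% lower. The sign of the list's median turned between the states. It was -0.10 in cycling cells, where 9 were measured, 1 higher and 0 lower, beside 6.5% and 12.9% of all genes. It was 0.48 in G1 cells, where 9 were measured, 4 higher and 0 lower, beside 19.4% and 22.6% of all genes. ABCA1, the cholesterol exporter, stood at 27.8 CPM in the RUNX1-labelled library (2093 UMIs) and 4.61 CPM in the control (349 UMIs), a log2 ratio of 2.59 (interval 2.43 to 2.76). Within cycling cells its ratio was 1.82 and within G1 cells 2.35. MYLIP, the ligase that degrades the lipoprotein receptor, stood at 16.4 CPM in the RUNX1-labelled library and 5.65 CPM in the control (1.54), and NPC2, the lysosomal sterol carrier, at 143 CPM in the RUNX1-labelled library and 98.5 CPM in the control (0.54). SOAT1, which esterifies cholesterol for storage, stood at 7.49 CPM in the RUNX1-labelled library and 12.1 CPM in the control (-0.70). SOAT1 was under the limit within both states, at -0.45 in cycling cells and -0.40 in G1 cells. MYLIP had 0.84 and 0.89, and NPC2 0.36 and 0.68, in the same order.

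The isoprenoid branches, which use farnesyl diphosphate for other products, had 12 of 14 genes measured, 3 lower, 0 higher and a median of -0.34, so 25% were lower, near the 21.4% of all genes. In cycling cells 3 were lower and in G1 cells 5, beside 12.9% and 22.6% of all genes. The lower ones were COQ2 (-0.99) and PDSS1 (-0.89), both of coenzyme Q synthesis, and ICMT (-0.82), which methylates prenylated proteins, and NUS1, a subunit of the dolichol enzyme, had -0.49. Of 20 other genes of fatty acid synthesis and activation 13 were measured, with 1 lower, 0 higher and a median of -0.21. The lower one was the acyl-CoA synthetase ACSL3 (-0.63), where 21.4% of all genes were lower. In cycling cells 4 were lower, beside 12.9% of all genes. ACSL4, SCD5 and the citrate carrier SLC25A1 had ratios of -0.48, -0.44 and -0.39. Of 16 fatty acid oxidation genes 14 were measured, with 0 lower and 2 higher, the acyl-CoA dehydrogenases ACADS (39.0 CPM in the RUNX1-labelled library and 20.3 CPM in the control, 0.94) and ACADVL (0.54), and a median of 0.12. Their share is close to the 13.8% of all genes that were higher. In cycling cells 0 were higher and 1 lower, CPT1A (-0.57), beside 6.5% and 12.9% of all genes. In G1 cells 3 were higher, beside 19.4% of all genes. PPARA, a regulator of this route, had a ratio of 0.48 and CPT1A, its carnitine transferase, of -0.47. Within cycling cells the ratio of ACADS was 0.20 and within G1 cells 1.26. For comparison, 37 of 42 measured S phase genes and 47 of 52 measured G2/M genes were lower over all cells, beside 21.4% of all genes.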

How the data were processed

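Single-cell RNA-seq of Nalm-6 cells was made with the 10x Genomics Chromium 3' assay, 1 library per group. The authors counted UMIs with Cell Ranger 3.0.2 on hg19 and mm10, and the files hold the deposited human UMI counts, not normalized, whose library totals are given above. Groups follow the genotype labels. The members and lists were chosen with earlier results of these data known. Cells with more than 2000 and fewer than 6000 genes and under 20% mitochondrial UMIs were kept as in the study, leaving out 691 barcodes of the RUNX1-labelled library and 475 of the control. Of the passing barcodes 10 occurred in both libraries and were kept, 0 barcodes had 500 mouse UMIs, and doublets were not called. CPM was the sum of a gene over the cells of a group, scaled by the sum over all genes, with no pseudocount. A gene was measured where 1 of the groups compared reached 10 CPM, and those under 4 UMIs were set to a floor of 3 UMIs for ratios. Intervals are exact Poisson, Clopper-Pearson and conditional binomial. Ratios were tried on simulated Poisson counts, the error that these intervals assume, so that trial says nothing of spread between cells or libraries. Both libraries were scored together for phase (scanpy 1.11.5), and 7.07% of RUNX1-labelled cells and 6.09% of control cells scored within 0.05 of the G1 limit. All 26 members are named, and of each other list but the phase lists up to 4 measured genes with the largest ratio in size. The tables lacked 6 listed symbols. Some further genes of the pathway are not reported here. Alternatives changed the scaling, cell filter, level limit, thinning and phase calls, with TMM factors from edgeR 4.0.16 in R 4.3.3. Scripts ran under Python 3.11.15 with pandas 2.3.3, numpy 2.4.6 and scipy 1.17.1. Gene overlaps come from GENCODE v44lift37 on GRCh37, where 25 of 26 members matched by identifier. ChIP-seq from 10 further samples was not used here.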

Additional observations from a re-analysis of the deposited data

Results flagged for a closer look

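FADS1 was singled out because its ratio between the RUNX1-labelled library and the control lay on opposite sides of 0 in the 2 cycling states. In cells called G1 it stood at 114 CPM in the RUNX1-labelled library and 93.8 CPM in the control, a log2 ratio of 0.28 (counting interval 0.14 to 0.41). In cells called S or G2/M it stood at 118 CPM in the RUNX1-labelled library and 133 CPM in the control, a log2 ratio of -0.18 (-0.23 to -0.12). The ratios differed by 0.45, and this difference was not tested, since each group is 1 library. The median of all genes was -0.14 in cycling cells and -0.07 in G1 cells. Relative to it FADS1 stood at -0.04 in cycling cells and 0.35 in G1 cells. Its ratio in cycling cells thus lay near that of all genes, and it came as near to 0 as -0.01 under the alternatives.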

How the results depend on the processing

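The median of the members stayed below 0 in all 5 comparisons under every alternative run. The median of all genes was below 0 in many of these settings too, such as -0.25 with TMM factors over all cells. For G1 over cycling cells in the control, the members' median minus that of all genes was only -0.05. Under 10% mitochondrial UMIs that distance was 0.01, so the members did not lie below all genes there. Over all cells the 12 members past the limit kept their sign under all 8 alternatives that could move a ratio, and 8 of them also stayed past it, the exceptions being IDI1, MVK, EBP and SREBF1. In cycling cells 9 of 9 kept their sign and 4 of 9 stayed past the limit, the exceptions being INSIG1, LSS, SCD, ACAT2 and FADS2. In G1 cells these were 12 of 12 and 10 of 12, the exceptions being IDI1 and FDPS. Signs of other members were lost over all cells for FASN, ACACA, SREBF2 and FADS1. The median over all cells was -0.43, against -0.13 for all genes. With TMM factors it was -0.56 (1 member higher), where 10.3% of all genes were higher. Without mitochondrial and ribosomal protein genes in the totals it was -0.23 (4 higher), where 21.7% of all genes were higher. As a mean of each cell's share of UMIs it was -0.49, against -0.08 for all genes. Weighting the RUNX1-labelled library to the phase shares of the control, chosen after seeing the data, gave -0.31, against -0.13 for all genes. That weighting had 8 members lower and 1 higher, where 13.2% of all genes were lower and 7.04% higher. TMM factors called 15 members lower, where 30.5% of all genes were lower. In cycling cells leaving mitochondrial and ribosomal protein genes out of the totals gave a median of -0.15 with 4 lower and 2 higher. Of all genes 5.99% were then lower and 11.5% higher. Cells under 10% mitochondrial UMIs, 219 in the RUNX1-labelled library and 3139 in the control, gave 9 lower and 2 higher. Of all genes 11.8% were lower and 10.3% higher under this filter. In G1 cells this filter gave 16 lower and 4 higher, where 24.9% of all genes were lower and 30.7% higher, and the cause was not tested. For G1 over cycling cells in the RUNX1-labelled library, TMM factors gave a median of -0.37, and 2 members were higher without mitochondrial and ribosomal protein genes in the totals, under 10% mitochondrial UMIs, as a mean of shares, on thinned cells, and with phase called without thinning, without cells near the limit or within each library alone, where 14.6% to 23.5% of all genes were higher. In the control, alternatives added after seeing the data gave 0 lower by median of ratios and without those genes in the totals, and 1 lower with the mitochondrial filter, all barcodes, phase on cells thinned to 4000 UMIs or phase within each library, where 8.29% to 12.9% of all genes were lower. Without cells near the limit 3 were lower, where 12.9% of all genes were lower, with a median of -0.22 against -0.06 for all genes. They gave 1 higher without those genes in the totals, with all barcodes, as a mean of shares, on thinned cells, with phase called without thinning or without cells near the limit, where 2.78% to 4.15% of all genes were higher. No paired analysis was possible because each group was 1 library. Depth limits the control cells called G1 most, with 488 cells and 5467786 UMIs.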
